A study of Sus scrofa with 6 samples.

Results

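The genes that open the follicle wall at ovulation, and those that restrain them, were followed in preovulatory follicles of 3 Large White and 3 Chinese Taihu sows. The set comprises the tissue inhibitors of metalloproteinases TIMP1, TIMP2 and TIMP3, the matrix metalloproteinases MMP1, MMP2 and MMP9, the plasminogen activators PLAT and PLAU, and the secreted protease ADAMTS1. A probe set, the group of probes that reports 1 transcript on the array, was taken when the probe table of the array gave it exactly 1 gene symbol and that symbol was one of these. This gave 13 of the 24123 probe sets on the array, covering all 9 genes, out of 6765 genes with such a probe set. The genes and the lists below were chosen with earlier results of these data known.

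All 6 sows were multiparous and cycling, received 1000 IU of PMSG, a gonadotrophin that drives follicle growth, and 80 h later 500 IU of hCG, which stands in for the LH surge, and were killed 30 to 38 h after hCG. The breed is the only label that separates the groups, and the Chinese sows are called Chinese Erhualian in the labels and Chinese Taihu in the study. Each breed came from its own farm, so breed and farm cannot be told apart. Total RNA of healthy dissected follicles, 5 µg per sow, was hybridized to 1 array for each sow. Age, exact hour of sampling and parity of single sows are not given in the sources used here.

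Ovulation needs a hole in the wall of the follicle. The LH surge raises plasminogen activators, which turn plasminogen into plasmin, and plasmin and the membrane protease MMP14 switch on collagen-cutting metalloproteinases that are secreted in latent form. TIMP proteins bind the active enzymes one to one and hold the cutting to a small area. TIMP1 is one of the transcripts best known to rise in granulosa and theca cells after the surge, and ADAMTS1 is induced by the progesterone receptor in the mouse and cleaves versican in the expanding cumulus matrix.

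The normalized signal of a probe set is a linear intensity with no unit, brought by the authors to a common level on all arrays. Levels of different probe sets are not comparable as amounts of RNA, since probes bind with different strength. Testing on the log2 scale was limited to the 19196 probe sets whose signal exceeded 50 in 3 or more sows, and a log2 difference is always Chinese Taihu minus Large White. Of the 13 member probe sets, 12 were tested, with at least 1 for each gene.

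The array of Chinese Taihu sow 1 stood apart from the others in its cell type markers. Its granulosa markers had a median of -1.44 on the log2 scale once each gene was centred on its middle value (12 genes tested, other arrays -0.11 to 0.19), with 7 of the 12 lowest and 2 highest there, and 9 of 9 tested theca and steroidogenic markers were lowest there. INHA, the alpha subunit of inhibin and a defining granulosa transcript, lay at 446 here but between 6510 and 10684 elsewhere. INHBA, the beta A subunit of inhibin and activin, ran the other way, at 899 against 233 to 387, and CYP19A1, the aromatase, lay between 88.4 and 119 in every sow. The summed signal of the 10 surface epithelium and oviduct markers reached 45032 in Chinese Taihu sow 1 and 8396 in Large White sow 3, against 2074 to 2833 elsewhere. Large White sow 2 had 13 of 19 leukocyte markers at their highest, with a summed signal of 20390 against 3946 to 6380. The 3 red blood cell markers summed to 478 to 668 in Large White and 719 to 919 in Chinese Taihu sows. Taken singly, HBB, ALAS2 and AHSP each overlapped between the breeds. Of these 3, 2 were higher in Chinese Taihu sows at an unadjusted limma p of at most 0.05, against 1.56% of all tested probe sets. No other marker list held such a call in either direction. Smooth muscle, fibroblast and endothelial markers had medians of -0.42 to 0.28 on all arrays. Single genes of these lists moved in both directions in Chinese Taihu sow 1, where DPT, a dermal matrix protein, had 3389 against 149 to 242, CNN1, a smooth muscle calponin, 3979 against 472 to 1826 and TCF21, a fibroblast transcription factor, 206 against 1004 to 2361. FSHR and the theca marker GLI1 did not pass the filter. Differences of the members are therefore also given with Chinese Taihu sow 1 left out. In whole follicles, fewer cells of a type and less RNA per cell cannot be told apart.

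**Figure D1:**
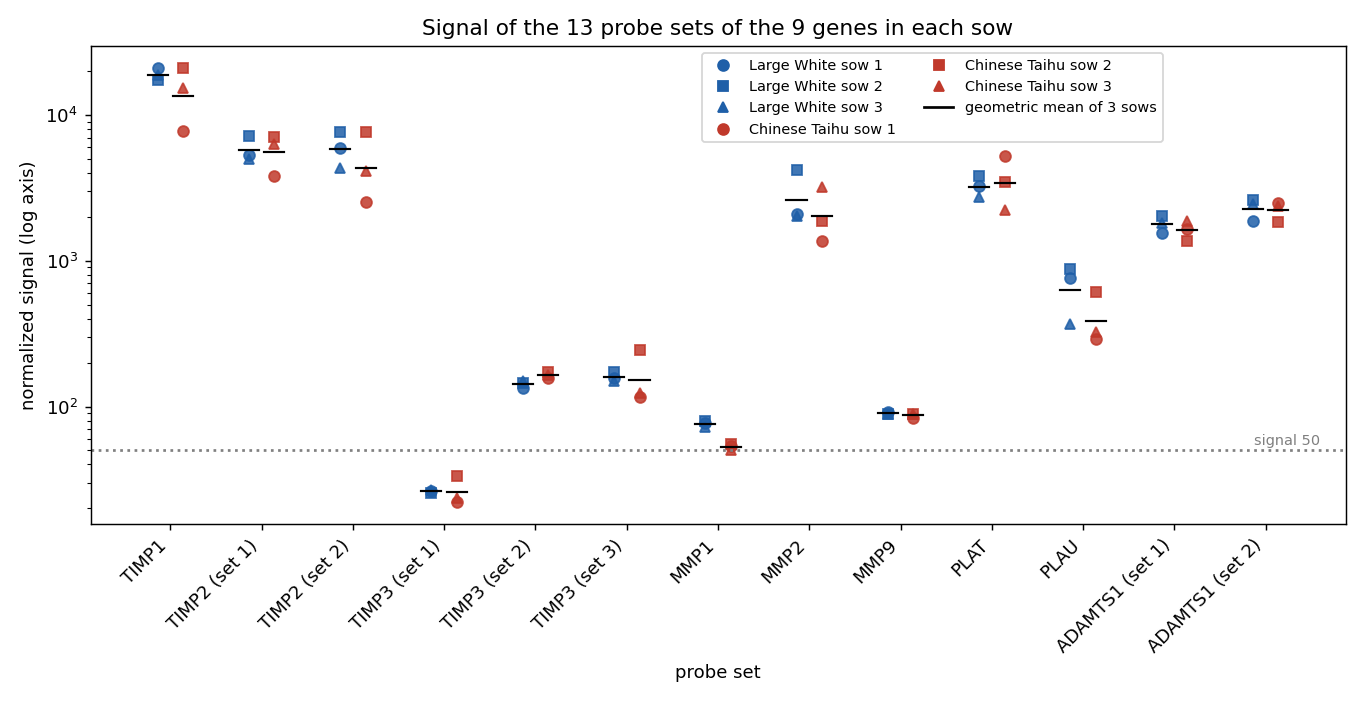
Normalized signal (log axis) of each of the 13 probe sets in the 6 sows, with the geometric mean of each breed as a line and the filter level of 50 dotted. TIMP1 lies highest at 7743 to 21178, while TIMP3, MMP1 and MMP9 lie within 22.1 to 243.

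TIMP1 gave the brightest signal of the 9 genes, and its level exceeded that of 99.97% of the tested probe sets. The signal was 20967, 17298 and 18735 in Large White sows 1, 2 and 3 and 7743, 21178 and 15309 in Chinese Taihu sows 1, 2 and 3. Chinese Taihu sow 2 was the highest of all 6 and Chinese Taihu sow 1 the lowest, so the breeds overlapped. The means were 19000.1 ± 1849 (SD, n = 3) and 14743 ± 6736, a log2 difference of -0.48 (SE 0.35, 95% interval -1.33 to 0.37, exact permutation p = 0.5, limma adjusted p = 0.993). Without Chinese Taihu sow 1 the difference was -0.073. The Large White sows lay within 1.21-fold of each other and the Chinese Taihu sows within 2.74-fold.

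TIMP2, which inhibits MMP2 and also tethers its latent form to MMP14, was read by 2 probe sets. The brighter, set 1, had 5294, 7234 and 5001 in the Large White, against 3807, 7125 and 6291 in the Chinese Taihu sows. Set 2 had 5987, 7628 and 4346 in the Large White, against 2542, 7606 and 4146 in the Chinese Taihu sows. In both sets Large White sow 2 was highest, Chinese Taihu sow 2 a close second and Chinese Taihu sow 1 lowest. The log2 difference was -0.056 (SE 0.28) for set 1 and -0.44 (SE 0.42) for set 2 (limma adjusted p = 0.999 and 0.993). Without Chinese Taihu sow 1 these became 0.22 and -0.055. The ratio of set 1 to set 2 ran from 0.884 to 1.52 over the 6 arrays.

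TIMP3, the inhibitor that stays bound to the matrix, had a low signal in all 3 of its probe sets. Set 1 lay at 22.1 to 33.3, under 50 on every array, and was not tested. Set 2, designed on the same accession, had 133, 144 and 150 in the Large White, against 156, 174 and 165 in the Chinese Taihu sows. It was the 1 member probe set whose Chinese Taihu arrays all lay above the Large White arrays (log2 0.21, SE 0.14, exact permutation p = 0.1, limma adjusted p = 0.993), and the log2 difference was 0.25 with Chinese Taihu sow 1 left out. Set 3 had 158, 171 and 150.2 in the Large White, against 116, 243 and 123 in the Chinese Taihu sows, with 1 Chinese Taihu array above and 2 below the Large White range (log2 -0.077, SE 0.30), and 0.12 with Chinese Taihu sow 1 left out. The 2 sets therefore differed in which sow was low.

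MMP2, the gelatinase that cuts basement membrane collagen, was the metalloproteinase with the brightest signal among the members, above 94.8% of tested probe sets. Large White sows had 2094, 4222 and 2015 and Chinese Taihu sows 1366, 1880 and 3201. A single sow of each breed, Large White sow 2 and Chinese Taihu sow 3, lay well above the other 4. The means were 2777 ± 1252 (SD, n = 3) and 2149 ± 947 (log2 -0.37, SE 0.42, exact permutation p = 0.5, limma adjusted p = 0.993). The log2 difference was -0.090 without Chinese Taihu sow 1 and -0.026 without Large White sow 2.

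MMP1, the interstitial collagenase, was the member with the clearest separation of the breeds, at a signal near the filter level. It had 76.5, 79.4 and 72.1 in the Large White, against 53.9, 55.1 and 50.4 in the Chinese Taihu sows. Every Chinese Taihu array lay below every Large White array, and the sows of a breed lay within 1.10-fold of each other. The means were 76.0 ± 3.70 (SD, n = 3) and 53.1 ± 2.45, a log2 difference of -0.52 (SE 0.13, 95% interval -0.83 to -0.20, exact permutation p = 0.1, the smallest possible with 3 against 3). The unadjusted limma p was 0.00645 and the adjusted p 0.993, so the difference did not pass correction over all probe sets. Its level exceeded that of only 6.61% of tested probe sets. The signal stayed under 100 on every array and present calls were not analysed here. The signal alone therefore cannot tell a lower transcript from a difference in background. Without Chinese Taihu sow 1 the log2 difference was -0.53. The 9 hybridization spike-ins, added at a fixed amount, averaged 0.940 to 1.08 of the Large White mean in Large White sows and 1.31 to 1.47 of it in Chinese Taihu sows, and their part in the MMP1 values was not tested.

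MMP9, the gelatinase of neutrophils and macrophages, hardly varied. Its signals were 91.6, 89.4 and 88.6 in the Large White, against 83.5, 89.1 and 89.4 in the Chinese Taihu sows, all within 1.10-fold. Only 0.302% of tested probe sets had a narrower range. The log2 difference between the breeds was -0.041 (95% interval -0.35 to 0.27, limma adjusted p = 0.998) and -0.0097 with Chinese Taihu sow 1 left out. The signal stayed under 100 on every array. The study lists present calls, but these were not analysed here, and the signal alone cannot tell a flat transcript from background.

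PLAU, urokinase, the activator that acts at cell surfaces, had the largest mean difference of the 9 genes without passing the test. The signal was 762, 884 and 366 in the Large White, against 290.0, 607 and 323 in the Chinese Taihu sows. Large White sows 1 and 2 and Chinese Taihu sow 2 were high, and Large White sow 3 and Chinese Taihu sows 1 and 3 low. The means were 671 ± 271 (SD, n = 3) and 407 ± 174, a log2 difference of -0.71 (SE 0.44, 95% interval -1.76 to 0.35, exact permutation p = 0.2, limma adjusted p = 0.993). It was -0.50 without Chinese Taihu sow 1, -0.46 without Large White sow 2 and -1.09 without Large White sow 3. In the last of these fits the unadjusted limma p was 0.0344 and the adjusted p 0.932. The adjusted p was 0.708 or more under every alternative run.

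PLAT, tissue-type plasminogen activator, ran the other way in Chinese Taihu sow 1. It had 3240, 3797 and 2728 in the Large White, against 5205, 3459 and 2227 in the Chinese Taihu sows. Chinese Taihu sow 1 was the highest of all 6, the 1 member probe set for which this was so, and Chinese Taihu sow 3 the lowest. The log2 difference was 0.085 (SE 0.32, 95% interval -0.70 to 0.87, limma adjusted p = 0.998) and -0.22 without Chinese Taihu sow 1. In that sow, urokinase and tissue-type activator thus took the lowest and the highest place of the 6 arrays.

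ADAMTS1 varied little. Set 1 had 1563, 2023 and 1809 in the Large White, against 1652, 1378 and 1864 in the Chinese Taihu sows. Set 2 had 1870, 2596 and 2444 in the Large White, against 2483, 1847 and 2373 in the Chinese Taihu sows. In both sets Large White sow 2 was highest and Chinese Taihu sow 2 lowest, and Chinese Taihu sow 1 was at neither end. The whole range was 1.47-fold and 1.41-fold, and the log2 differences were -0.14 (SE 0.20) and -0.042 (SE 0.21, limma adjusted p = 0.993 and 0.9997). With Chinese Taihu sow 1 left out they were -0.16 and -0.12.

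**Figure D2:**
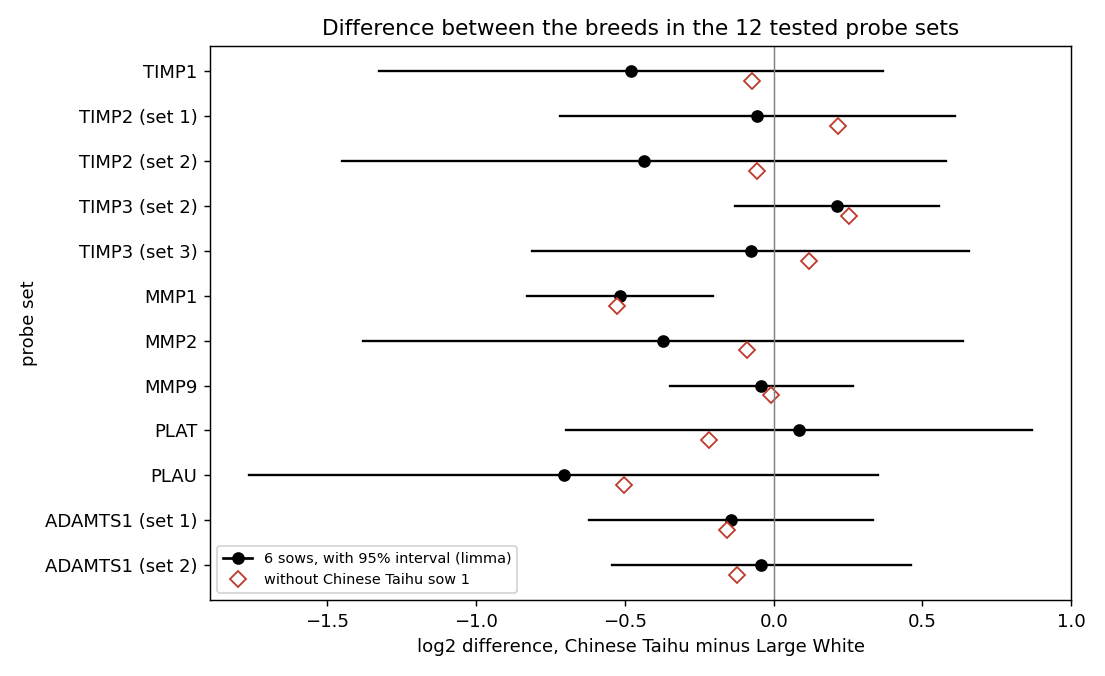
Log2 difference between the breeds for the 12 tested probe sets, with the 95% interval from limma over 6 sows as a line and the difference without Chinese Taihu sow 1 as an open diamond. The interval of MMP1 (-0.83 to -0.20) is the only one clear of 0, and the differences of TIMP1, TIMP2 and MMP2 lie nearer to 0 or above it without that sow.

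Across the 12 tested probe sets, 0 passed an adjusted p of 0.05 by limma (2-sided, n = 3 per breed) and 0 by the methods' t-test. Over all 19196 probe sets 0.0208% did. At an unadjusted p of at most 0.05 it was 1 of 12, MMP1, against 3.86% of all tested probe sets (2.3% lower and 1.56% higher in Chinese Taihu sows). The breeds were fully apart in 2 of 12, MMP1 (lower) and TIMP3 set 2 (higher), against 9.1% of all (5.12% lower and 3.98% higher). The median log2 difference was -0.11 for the member probe sets and 0.0019 for all. The mean log2 signal was lower in Chinese Taihu sows in 10 of 12 and higher in 2, where 49.7% of all probe sets were lower. Without Chinese Taihu sow 1 it was 9 of 12 and the median -0.082. The 95% intervals reached 0.31 (MMP9) to 1.06 (PLAU) on the log2 scale to each side, depending on the spread of each probe set, and those of TIMP1 and PLAU included 0.

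The breeds were fully apart in 2 of 12 member probe sets, against 9.1% of all tested probe sets, and the same few sows often took the extremes. Chinese Taihu sow 1 was lowest in 7 of 12 member probe sets, against 23.1% of all tested probe sets, and Large White sow 2 was highest in 7 of 12, against 14.7%. TIMP2 enters both counts by 2 probe sets, and ADAMTS1 enters the count of Large White sow 2 by 2. In TIMP2 set 2 that sow led only by 7628 against 7606. The log2 range over the 6 arrays had a median of 0.999 in the members and 0.81 in all probe sets, and 6 of 12 reached a 2-fold range against 38.1%. Of these 6 (TIMP1, TIMP2 set 2, TIMP3 set 3, MMP2, PLAT and PLAU), 5 were lowest in Chinese Taihu sow 1, against 28.9% of all probe sets with a 2-fold range. That sow itself enters the range, and the other 5 had 15309 to 21178 for TIMP1. The SD of the log2 signal was larger among Chinese Taihu than among Large White sows in 8 of 12 (59.3% of all). The low granulosa and theca markers and the high epithelial markers of Chinese Taihu sow 1 and the high leukocyte markers of Large White sow 2 move with these values, and their part was not tested. The part of the high theca and steroidogenic markers of Large White sow 1 and Chinese Taihu sow 2 was not tested either.

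**Figure D3:**
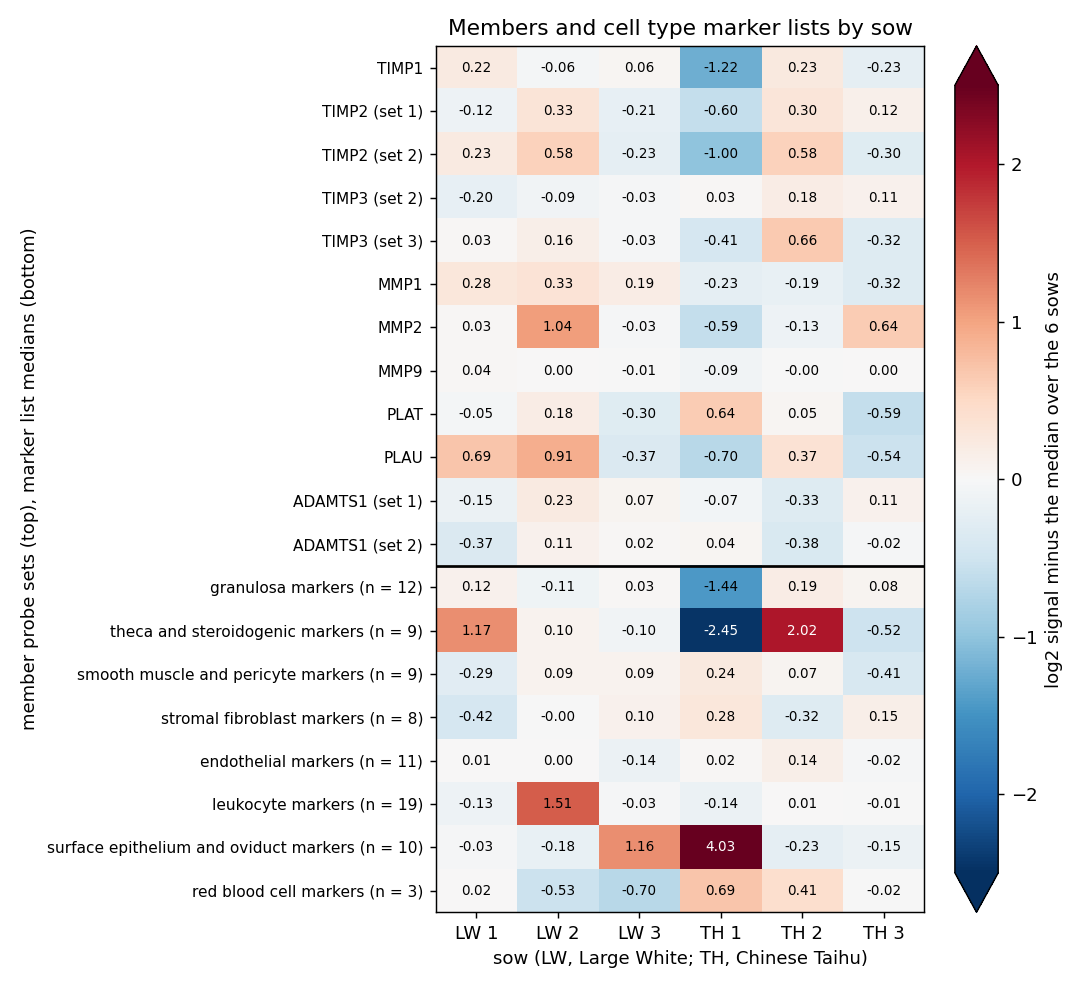
Log2 signal minus the median over the 6 sows for the 12 tested probe sets (top), and the same as a list median for 8 cell type marker lists with the number of genes tested (bottom). Chinese Taihu sow 1 is low in TIMP1 (-1.22) and TIMP2 set 2 (-1.005), high in PLAT (0.64), and stands out in granulosa (-1.44) and epithelial markers (4.03).

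Of 48 other metalloproteinase genes listed, 12 had a usable probe set and 8 were tested, each gene by its brightest probe set. None reached an unadjusted limma p of 0.05 or had breeds without overlap, against 3.86% and 9.1% of all tested probe sets. The median log2 difference was 0.17. MMP14, which activates latent MMP2, had 793, 2189 and 1071 in the Large White, against 631, 546 and 1276 in the Chinese Taihu sows (log2 -0.69, SE 0.48, limma adjusted p = 0.993, and -0.56 with Chinese Taihu sow 1 left out). Large White sow 2 and Chinese Taihu sow 3 were the highest of their breed in MMP14, as they were in MMP2. ADAM10, a sheddase of membrane proteins, ranged from 94.7 to 383 and ADAM15 from 208 to 434. ADAM28, a sheddase known from lymphocytes and epididymis, had 737 in Chinese Taihu sow 1, against 53.9 to 230.0 elsewhere.

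MMP1 belongs to a row of 8 metalloproteinase genes that lie next to each other in the RefSeq annotation of the pig genome assembly Sscrofa11.1 (MMP7, MMP20, MMP27, MMP8, MMP1, MMP3, MMP12 and MMP13, in this order), 5 of which have a probe set with 1 symbol. Except for MMP7 in 1 sow, their signals lay under 100. MMP3, stromelysin 1, had 54.5 to 98.1 in its brightest probe set and 7.99 to 32.6 in its others, which were under the filter. MMP13, collagenase 3, had 35.6 to 51.5, and MMP20, the enamel protease, had 10.8 to 16.6. MMP7, matrilysin, an enzyme made by epithelial cells, had 1556 in Chinese Taihu sow 1, against 25.4 to 35.5 elsewhere. MMP7 was under the filter and not tested, and MMP7, MMP13 and MMP20 were chosen for their position and after their values were seen.

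The plasminogen system list held 17 genes, of which 8 were tested. ENO1, a glycolytic enzyme that also binds plasminogen on cell surfaces, was lower without overlap, with 12936, 11131 and 10126 in the Large White, against 4575, 8194 and 8187 in the Chinese Taihu sows (log2 -0.75, SE 0.25, unadjusted p = 0.0230, limma adjusted p = 0.993), and -0.47 with Chinese Taihu sow 1 left out. SERPINE2, protease nexin 1, which inhibits urokinase and tissue-type activator, had 585 in Chinese Taihu sow 1, against 6808 to 9860 elsewhere, and its log2 difference of -1.02 (SE 1.05) became 0.29 once that sow was left out. S100A10, which with ANXA2 gathers plasminogen and its activators, had 3394, 8591 and 7056 in the Large White, against 5499, 2790 and 3645 in the Chinese Taihu sows (log2 -0.63, SE 0.41, and -0.89 with Chinese Taihu sow 1 left out). SERPINI1, neuroserpin, an inhibitor of tissue-type activator, had 28.9, 40.5 and 53.7 in the Large White, against 54.5, 251 and 76.5 in the Chinese Taihu sows. The breeds were apart only by 53.7 against 54.5, and 2 of the 3 Large White signals lay under 50, so no fold is given. The exact permutation p was 0.1, and the unadjusted limma p was 0.0559 with all sows and 0.0164 with Chinese Taihu sow 1 left out (adjusted p = 0.993 with all sows). Plasminogen itself, PLG, had 25.2 to 35.6 and SERPINB2, plasminogen activator inhibitor 2, had 2.71 to 18.4, both under the filter in all sows and named here after their values were seen.

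Of 37 other inhibitor genes listed, 25 were tested and 1 reached an unadjusted p of 0.05 (4% against 3.86% of all tested probe sets). SERPINA5, the protein C inhibitor, had 79.5, 81.5 and 128 in the Large White, against 24.6, 46.9 and 43.8 in the Chinese Taihu sows. The Chinese Taihu signals were all under 50, against which the Large White mean was at least 1.88-fold higher (unadjusted p = 0.00477, limma adjusted p = 0.993, and an unadjusted p of 0.00705 with Chinese Taihu sow 1 left out). Its other probe set had 63.6 to 75.2 in Large White and 33.6 to 46.4 in Chinese Taihu sows. CSTB, an intracellular inhibitor of cathepsins, had 12559 in Large White sow 2, against 2468 to 4081 elsewhere. SPINT2, a Kunitz inhibitor of epithelial serine proteases, had 4380 in Chinese Taihu sow 1 against 174 to 642. WFDC2, a secreted whey acidic protein of oviduct epithelium, had 3291 there, 796 in Large White sow 3 and 53.0 to 73.0 elsewhere. The other WFDC2 probe set did not show this, at 109 in Chinese Taihu sow 1 and 87.0 in Large White sow 3, against 88.8 to 116 elsewhere. TFPI2, an inhibitor of plasmin and coagulation proteases, had 3073 to 4132 in Large White and 3987 to 5427 in Chinese Taihu sows (log2 0.31, SE 0.19, and 0.40 with Chinese Taihu sow 1 left out), and TFPI had 52.4 to 72.7 over all sows.

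Among cathepsins and other secreted proteases 17 of 30 listed genes were tested. CTSC, which activates serine proteases of leukocyte granules, was lower without overlap, with 6866, 7320 and 6515 in the Large White, against 1260, 3222 and 5548 in the Chinese Taihu sows (log2 -1.29, SE 0.51, unadjusted p = 0.0424, limma adjusted p = 0.993), and -0.71 without Chinese Taihu sow 1. Only this brightest of 4 CTSC probe sets separated the breeds. In the other 3 the breeds overlapped, with log2 differences of -1.13, -1.17 and -1.04 and unadjusted limma p of 0.129, 0.113 and 0.144. CTSD, the lysosomal aspartic protease, had 10999 in Large White sow 2, against 820 to 3003 elsewhere. BMP1, the enzyme that trims procollagen, had 117 in Chinese Taihu sow 1 against 813 to 1263. PAPPA, the protease that frees IGF from its binding proteins, had 62.8 to 99.8, and CTSV had 2552 to 4606.

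In the list of matrix substrates and protease regulators, 15 of 18 genes were tested and none reached an unadjusted p of 0.05 in its brightest probe set. VCAN, versican, the substrate of ADAMTS1, had 172 in Chinese Taihu sow 1, against 1919 to 2374 elsewhere (log2 -1.10, SE 0.99, and 0.14 without that sow), while ADAMTS1 was within the range of the other sows there. COL4A2, a basement membrane collagen that MMP2 cuts, had 1385 in the same sow and 4853 to 6552 in the others. LUM, lumican of fibrillar collagen, had 2359 there and 214 to 623 in the others, and SPARC, a collagen-binding protein, had 7747 against 10571 to 12099. A dimmer SPARC probe set separated the breeds, with 408, 375 and 495 in the Large White, against 226, 293 and 282 in the Chinese Taihu sows (log2 -0.67, limma adjusted p = 0.993). LAMB1, a laminin chain of the basement membrane, had 797 to 1061 in Large White and 809 to 1470.3 in Chinese Taihu sows (log2 0.24, SE 0.27). Of 14 further tested probe sets of the genes named from the lists, 2 had an unadjusted limma p of at most 0.05, those of SERPINA5 and SPARC. Over all tested probe sets the share was 3.86%. These genes were named for a small p or a wide range in their brightest probe set on the same arrays, so the 2 shares are not alike.

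Together the 5 lists gave 73 tested genes, of which 3 were lower and 0 higher in Chinese Taihu sows at an unadjusted p of at most 0.05 (4.11% against 3.86% of all) and 0 passed the adjusted limma test. The breeds did not overlap in 3 lower genes and 1 higher gene (5.48% against 9.1% of all). Their median log2 difference was -0.00295. Chinese Taihu sow 1 was lowest in 26 of the 73 (35.6%, against 23.1% of all probe sets) and highest in 18 (24.7% against 23.5%). Large White sow 1 was lowest in 22 (30.1% against 18.9%). Large White sow 2 was highest in 18 (24.7% against 14.7%) and lowest in 1, and Chinese Taihu sow 2 was highest in 17 (23.3% against 15.6%).

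**Figure D4:**
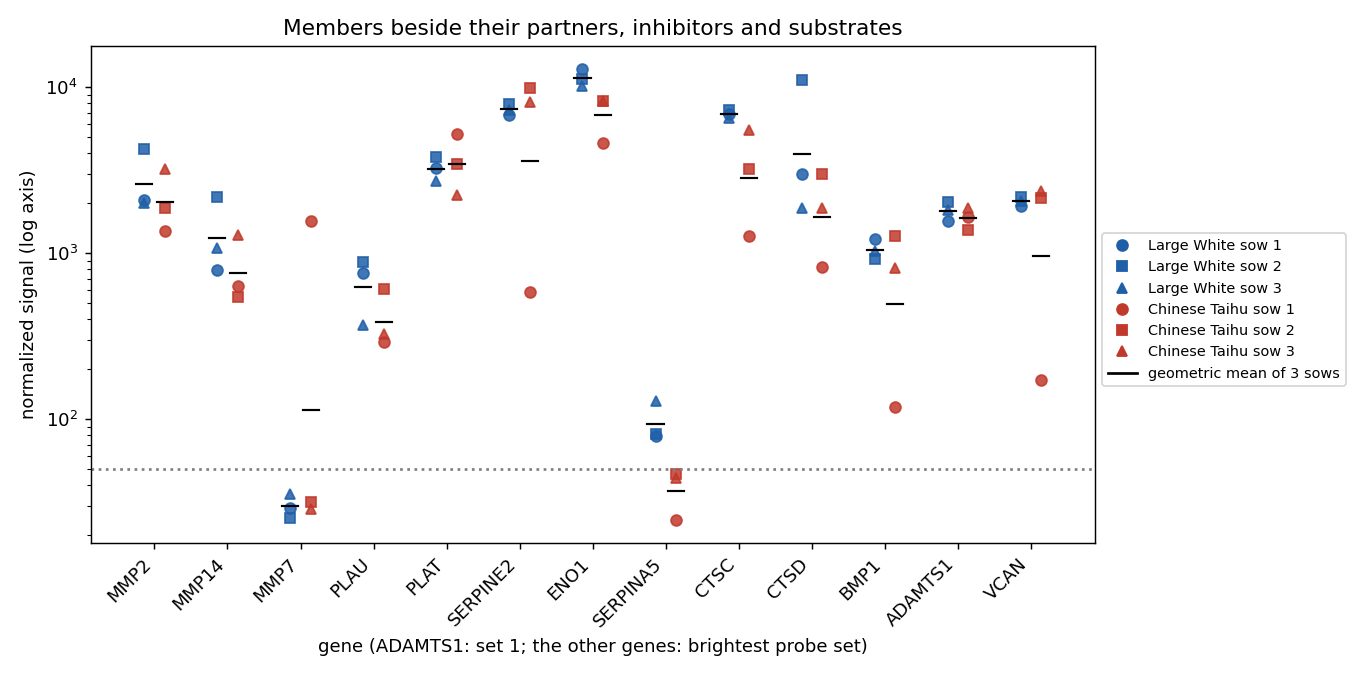
Normalized signal (log axis) of MMP2, PLAU, PLAT and ADAMTS1 (set 1) in each sow, beside partner proteases, inhibitors and the substrate VCAN, with the geometric mean of each breed as a line and a signal of 50 dotted. Chinese Taihu sow 1 stands apart in MMP7 (1556), SERPINE2 (585), BMP1 (117) and VCAN (172), but not in ADAMTS1.

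Genes that answer the LH surge varied widely among sows, with a median log2 range of 3.30 against 0.81 over all tested probe sets. Of 24 listed, 15 were tested and none reached an unadjusted limma p of 0.05, against 3.86% of all tested probe sets. In 1 the breeds did not overlap (6.67% against 9.1% of all). PTGS2, the inducible prostaglandin synthase, had 22.7, 150.3 and 603 in the Large White, against 14.8, 15.0 and 1166 in the Chinese Taihu sows. PTX3, a structural protein of the cumulus matrix, had 65.6 in Chinese Taihu sow 1, against 2573 to 6844 elsewhere, and PTGES, the terminal prostaglandin E synthase, had 547 and 4458 to 9391. TNFAIP6, which links hyaluronan in that matrix, had 744 in Chinese Taihu sow 2, against 25.4 to 66.0 elsewhere. PPARG had 35.8 in Chinese Taihu sow 1 and 218 to 496 elsewhere, and IL6 was higher without overlap at a low signal (50.7 to 55.1 in Large White and 58.8 to 78.0 in Chinese Taihu sows, limma log2 0.32, SE 0.16, adjusted p = 0.993, and 0.21 with Chinese Taihu sow 1 left out). Over the same sows TIMP1 spanned 2.74-fold and ADAMTS1 set 1 spanned 1.47-fold. The LH genes named here were picked by smallest p or widest range, and others of their list spanned as little as 1.31-fold.

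The genes whose pattern over the 6 arrays was most like that of a member were found for the 5 genes with a 2-fold range in their brightest probe set. The measure was the mean absolute difference of the log2 signals after each gene's median was subtracted, over 9082 candidate probe sets. SLC12A4, a potassium chloride cotransporter, and SAT2, an acetyltransferase, followed TIMP1 (0.074 and 0.11, median of all candidates 0.42). ZADH2 and HM13, the signal peptide peptidase, followed TIMP3 set 3 (0.054 and 0.083). RRAD, a small GTPase, and FAM49B followed MMP2 (0.11 and 0.14), SLC2A4RG and RAB24 followed PLAT (0.087 each), and METTL1, a tRNA methyltransferase, and TKT, the transketolase of the pentose phosphate pathway, followed PLAU (0.12 and 0.13).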

How the data were processed

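RNA of preovulatory follicles of 3 Large White and 3 Chinese Taihu sows was measured on 6 Affymetrix Porcine Genome arrays, and the labels gave the groups. The deposited values are signal intensities on a linear scale, 1 per probe set and array. The authors computed them with MAS5 (version 2.3.1 in the submitters' processing notes), scaled every array to a common target and applied the invariant set normalization of dChip. Such scaling hides a difference in total RNA, and the number of arrays limits the precision.

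After removal of 188 controls, signals were floored at 1 and converted to log2. Those exceeding 50 in 3 or more sows were fitted for breed with limma 3.58.1 in R 4.3.3 (variance trend, 2-sided, Benjamini-Hochberg adjustment over 19196 probe sets). Exact permutation tests compared 3 log2 signals with 3. The fit was checked on simulated data with known changes. Python 3.11.15, pandas 2.3.3, numpy 2.4.6, scipy 1.17.1 and matplotlib 3.10.9 were used.

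The array's annotation gave 1 symbol to 10099 probe sets, several to 198 and none to 13826. By RefSeq gene ID, 9989 of the 10099 were found and 0 had another symbol. Genes of the other lists are read by their brightest probe set. MMP7, MMP13, MMP20, PLG, SERPINB2 and the cell type markers given by signal were added after values were seen. Named are otherwise all members, in each list the 4 genes with the smallest limma p and the 2 with the widest range, and for members with a 2-fold range the 2 genes most alike. Members and lists were chosen with earlier results of these data known. Present calls and RT-PCR values were not analysed here. Alternatives were other normalizations, filters and floors, array weights, an untrended prior, the replicate block, the methods' t-test, the probe set with the largest spread for each gene, and each array left out in turn.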

Additional observations from a re-analysis of the deposited data

How the results depend on the processing

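No member probe set and none of the other protease and inhibitor genes passed an adjusted p of 0.05 under any alternative run. The count of member probe sets at an unadjusted p of at most 0.05, 1 in the comparison reported, was 0 with a signal above 100 on 3 arrays, where MMP1 and MMP9 were no longer tested, 2 with the methods' t-test, and 1 to 3 with 1 array left out. Without Chinese Taihu sow 2 the 3 were MMP1, TIMP1 (log2 -0.80) and TIMP2 set 2 (-0.85). The count over the other 73 genes, 3 in the comparison reported, was 5 with array weights, 6 with the replicate block, 1 with the methods' t-test and 2 to 8 with 1 array left out (8 without Chinese Taihu sow 1). The share of all probe sets at that unadjusted p is given for the comparison reported only (3.86%). A change in these counts therefore cannot be told apart from a change over all probe sets. The 4 adjusted calls over all probe sets became 2 with log2 of signal plus 50, 11 with array weights, 0 with the replicate block, 0 with the methods' t-test, and 2 to 4 with 1 array left out. The cause was not tested. The log2 difference of MMP1 was negative under all 15 alternatives in which it was tested (-0.56 to -0.29, adjusted p 0.553 to 0.9998). The sign turned with quantile normalization for TIMP2 set 1 (0.029) and ADAMTS1 set 2 (0.0096) and with array weights for PLAT (-0.21). With 1 array left out it also turned for TIMP2 set 1 (-0.24 to 0.22), TIMP3 set 3 (-0.42 to 0.12), PLAT (-0.22 to 0.40) and ADAMTS1 set 2 (-0.18 to 0.090). The median log2 range of the members was 0.60 to 0.999 with 1 array left out, lowest without Chinese Taihu sow 1. Deviations from the breed means of arrays with the same number correlated at -0.17, -0.14 and 0.27, and those of arrays with different numbers at -0.48 to 0.51. With 3 arrays a breed, these values cannot decide whether the numbers pair the sows.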
